A study of Mus musculus with 15 samples.

Results

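The genes described here are the insulin-like growth factor (IGF) genes of cultured mouse spermatogonial stem cells: the ligands Igf1 and Igf2, the receptors Igf1r and Igf2r, and the binding proteins Igfbp2 to Igfbp7. They were chosen by gene symbol, 10 genes of the 18194 that the platform annotation names. They are carried by 28 of the 45101 probe sets, each a group of short oligonucleotides that is read as 1 value. All 10 genes passed the filter on dim probe sets, through 24 of the 28 probe sets. The family was selected on results of the comparison of withdrawal with maintained cultures that were already known, so for that comparison the values are given as a description without a test.

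IGF1 and IGF2 are secreted peptides that act through the tyrosine kinase receptor encoded by Igf1r, which feeds the PI3K-AKT and MAP kinase pathways and supports cell growth and survival. Igf2r encodes a receptor without kinase activity that takes up IGF2 and carries it to lysosomes. The IGF-binding proteins hold the ligands outside the cell with high affinity, and can keep them from the receptor or store them near it; the protein of Igfbp7 binds IGFs only weakly. In the testis, IGFs made by somatic cells act on germ cells. Glial cell line-derived neurotrophic factor (GDNF), which signals through GFRalpha1 and the kinase RET, is the main factor that keeps spermatogonial stem cells self-renewing.

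The cultures were germ cell cultures enriched for spermatogonial stem cells and established from C57BL/6 male mice 6 days old. Total RNA was measured on 15 Affymetrix arrays in 5 groups of 3. Maintained cultures were kept in serum-free medium with GDNF, GFRalpha1 and bFGF. Withdrawal cultures had been without GDNF and GFRalpha1 for 18 h. The 3 replacement groups had the same 18 h withdrawal and then received both factors again for 2, 4 or 8 h. Whether bFGF stayed in the medium of the last 4 groups is not stated in the labels, nor whether replicates were separate cultures, so p-values measure the spread between these arrays, which may be technical. The question addressed by the design is which transcripts depend on GDNF and how fast they respond to its return.

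The values are MAS5 signals in arbitrary units, on which the middle 96% of each array averaged 150. Bcl6b, a transcriptional repressor that GDNF is known to induce in these cells, lay between 66 and 116.2 on the withdrawal arrays and between 465.2 and 728.1 on the maintained arrays. Etv5 and Gfra1, also GDNF-dependent in these cells, averaged 354.0 ± 71.4 and 810.3 ± 82.2 after withdrawal against 1108 ± 369.5 and 1496 ± 114.0 in maintained cultures (SD, n = 3 each). The germ cell genes Dazl and Ddx4 read at least 3883.3 and 830.5 on every array. Of 16 germ cell marker genes tested, Etv5 and Gfra1 among them, 7 had a limma adjusted p below 0.05 on withdrawal, 2 higher and 5 lower. Of all genes, 8.04% did. The summed signal of these markers lay between 13810 and 16210 on the withdrawal arrays and between 18340 and 19770 on the maintained arrays. On the replacement arrays it lay between 16080 and 18620. Withdrawal replicate 3 stood apart: its ratio of 3′ to 5′ signal for actin was 2.77, against 1.10 to 1.75 on the other 14 arrays, and its summed signal for germ cell marker genes was the lowest, 13810 against 16080 to 19770. Below, the difference of a single gene or probe set from withdrawal is also given without it where that ended or made a call, turned the direction or moved the value by over 1.5 times. The summed signal of 17 fibroblast genes lay between 4676 and 10500 on the maintained, withdrawal and 2 h arrays, and between 11400 and 14390 on the 4 h and 8 h arrays. Between the same sets of arrays the Sertoli cell sum went from 2208 to 2895 up to 3315 to 4034, that of endothelial and blood cells from 857.2 to 1363 up to 1446 to 1859, and that of Leydig and peritubular cells from 310.4 to 478.3 up to 446.8 to 655.6. The single genes did not all follow these sums. At 4 h against withdrawal, 6 of 10 Sertoli genes tested were higher and 4 lower (median log2 difference 0.03). Of 6 endothelial and blood genes, 3 were higher and 3 lower (median -0.01). At 8 h these were 7 and 3 (median 0.28), and 4 and 2 (median 0.34). The Leydig and peritubular sum holds 3 genes, all higher at both times. In bulk RNA, more cells of a type cannot be told apart from more RNA per cell. A difference is given on the scale of log2(signal + 16), which understates changes of dim probe sets. It was called where limma's p, adjusted by Benjamini-Hochberg over 13083 genes, was below 0.05.

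The starts of transcription of Igfbp6, Igfbp2 and Igfbp5 are shown first, because a probe set of each was high on the withdrawal arrays; for Igfbp5 this holds for 1 of its 2 probe sets, and not for the brighter one. The sequences are those of RefSeq, build GRCm38.p6, and hold the 250 bases before the annotated start, read 5′ to 3′ on the strand of the gene. Igfbp6 lies on the plus strand, chr15:102143936-102144185. Igfbp2 lies on the plus strand and has annotated starts at 2 places, of which the window chr1:72824230-72824479 is shown. Igfbp5 lies on the minus strand, chr1:72874866-72875115, in the same region of chromosome 1. Capitals mark matches on either strand to the motifs searched.
Igfbp6: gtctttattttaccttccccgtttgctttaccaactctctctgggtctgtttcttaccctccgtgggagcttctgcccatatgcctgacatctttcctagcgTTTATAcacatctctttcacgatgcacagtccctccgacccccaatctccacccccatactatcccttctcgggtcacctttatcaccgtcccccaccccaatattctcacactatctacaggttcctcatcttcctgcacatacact
Igfbp2: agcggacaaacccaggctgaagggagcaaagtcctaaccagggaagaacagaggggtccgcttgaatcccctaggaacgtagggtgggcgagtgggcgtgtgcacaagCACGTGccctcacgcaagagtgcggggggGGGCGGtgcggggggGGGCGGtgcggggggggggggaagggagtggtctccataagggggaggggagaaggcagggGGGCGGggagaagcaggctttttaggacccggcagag
Igfbp5: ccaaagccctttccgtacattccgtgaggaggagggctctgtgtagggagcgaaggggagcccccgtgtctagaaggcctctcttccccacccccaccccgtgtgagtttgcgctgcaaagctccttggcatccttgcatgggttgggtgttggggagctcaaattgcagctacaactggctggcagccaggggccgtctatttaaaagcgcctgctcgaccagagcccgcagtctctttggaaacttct
A FOXO factor match was searched as the letters GTAAACA. The ETS factor match was CCGGAAGT, and that of EGR factors was GCGTGGGCG. An E-box was the palindrome CACGTG. A GC box was taken as GGGCGG, and a TATA box was taken to be the letters TATAAA. The marked Igfbp6 letters are a TATA box on the opposite strand. Those of Igfbp2 are 1 E-box and 3 GC boxes, and the Igfbp5 window held no match. The Igfbp2 window that is not shown, chr1:72825137-72825386, held no match either. The matches of these windows do not overlap each other. Among 32851 windows of the same length, 12.4% held the TATA letters, 6.02% the E-box, 32.7% the GC box, 3.17% the FOXO letters, 2.88% the ETS letters and 0.536% the EGR letters. All 10 genes matched a RefSeq entry, with 14 windows in all, and none of the 14 held the FOXO, ETS or EGR letters. A match is a description of the letters and not a bound site.

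On the 1 probe set that represents each gene, Igfbp6 and Igfbp2 were higher and Igf2 was lower after 18 h without the factors, and on all 3 genes the 8 h replacement arrays lay between the withdrawal and the maintained arrays. Igfbp7 was instead highest at 4 h and 8 h of replacement. Its arrays there read above the maintained ones, but its difference between 8 h and maintained cultures was not called. On withdrawal, the comparison that the family was chosen from, the 2 groups did not overlap for these 3 of 10 genes, nor for 26.8% of all genes, and nothing is read from that count. The median difference of the family was 0.12 against 0.06 over all genes. After 2 h of replacement no member was called by limma (0.115% of all genes were), with 2 at an unadjusted p below 0.05. After 4 h 1 member was called (2.64% of all genes), and after 8 h 3 were (2.39% of all genes). Between 8 h of replacement and maintained cultures 1 member was called (0.482% of all genes), and between 8 h and 2 h of replacement 1 (1.85% of all genes). The median difference of the family was -0.18 at 2 h, -0.17 at 4 h and 0.12 at 8 h against withdrawal, where the median of all genes was -0.04, -0.05 and 0.01. The comparisons at 2, 4 and 8 h share the 3 withdrawal arrays with the comparison that the family was chosen from, so a return from a high or low withdrawal value is not independent of that choice. The comparison of 8 h with maintained cultures shares the 3 maintained arrays with it, so the call there is not independent of the choice either.

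**Figure D1:**
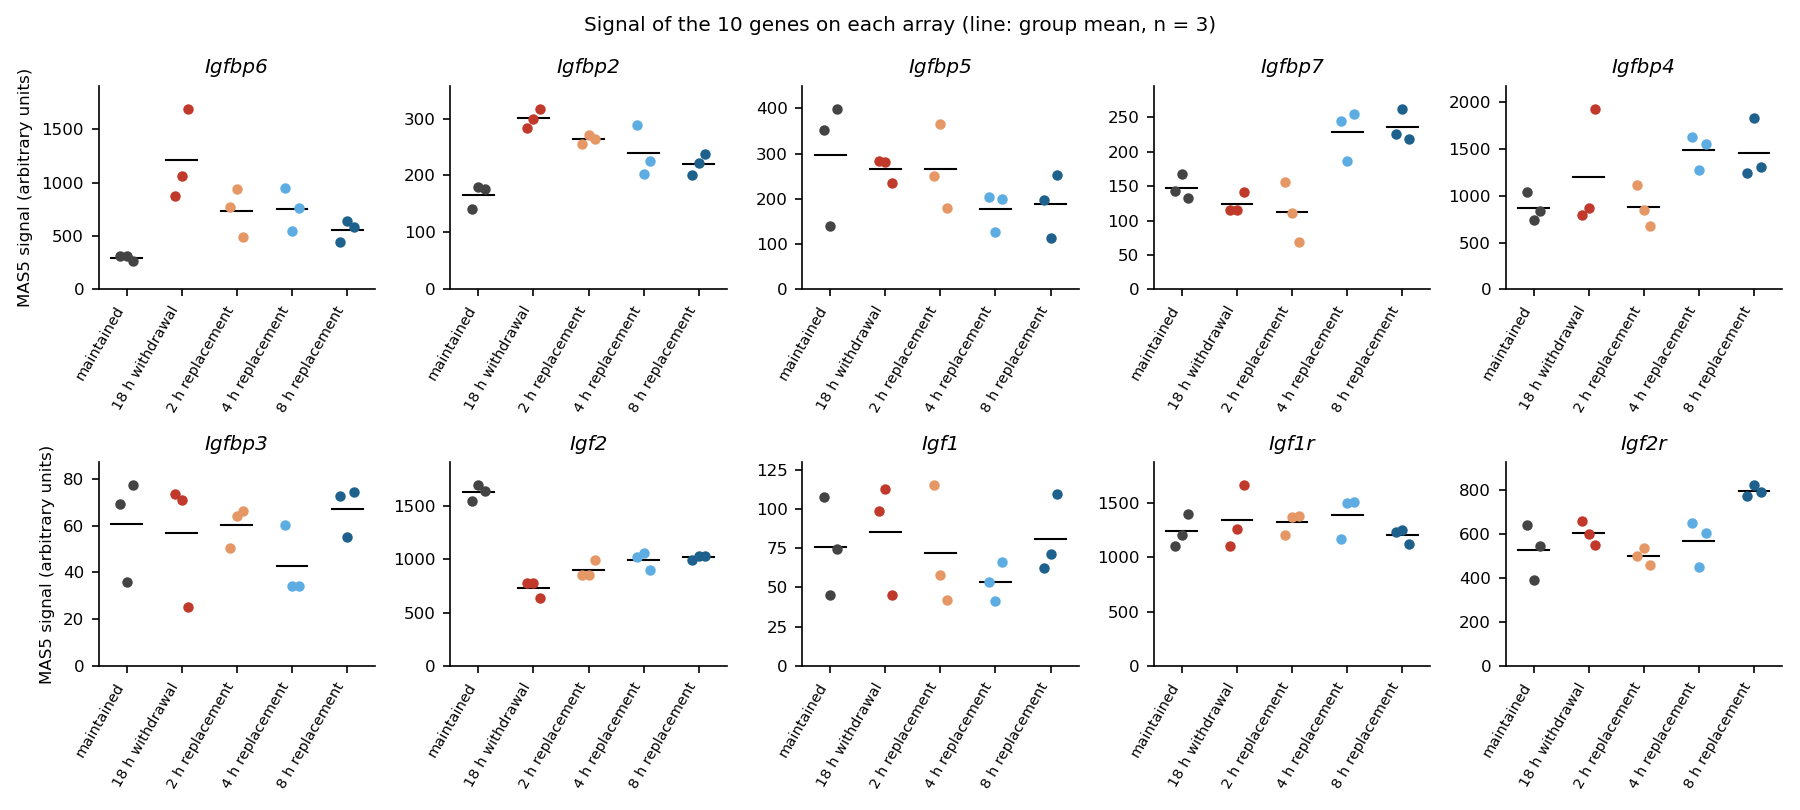
MAS5 signal (arbitrary units, vertical axis) of the 10 genes, 1 probe set a gene, on the 15 arrays in 5 groups (horizontal axis). Points are arrays and lines are group means (n = 3). Igfbp6 and Igfbp2 are highest and Igf2 is lowest on the withdrawal arrays, and Igfbp7 is highest at 4 h and 8 h of replacement.

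Igfbp6, whose protein prefers IGF2 to IGF1, had the largest withdrawal difference of the family. Its signal was 309.9, 315.9 and 261.7 on the maintained arrays and 875.9, 1067.5 and 1696.0 on the withdrawal arrays. It was 768.2, 938.6 and 488.0 at 2 h of replacement, 949.0, 551.2 and 760.0 at 4 h, and 440.7, 640.8 and 585.7 at 8 h. All 12 arrays with withdrawn factors exceeded all 3 maintained arrays, and the groups at 2 h and 4 h overlapped each other and the withdrawal group. Withdrawal was 1.93 above maintained on the log2 scale (SE 0.25, n = 3 against 3), which is 3.8-fold, and 1.66 without withdrawal replicate 3, the highest array.

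At 8 h Igfbp6 had fallen by 1.07 on the log2 scale against withdrawal (SE 0.25, 95% interval -1.60 to -0.53, limma adjusted p = 0.0339), and the 3 arrays of 8 h lay below the 3 of withdrawal. The differences at 2 h and 4 h were -0.71 and -0.65 and were not called (limma adjusted p = 0.476 and 0.167). These Igfbp6 differences were -0.44 and -0.39 without withdrawal replicate 3. The call at 8 h was lost without withdrawal replicate 3 (-0.80, limma adjusted p = 0.107) and without withdrawal replicate 2 (adjusted p = 0.0655). It was also lost without 8 h replicate 1, 2 or 3 (limma adjusted p = 0.150, 0.0732 and 0.0916), with the direction kept in all 26 alternatives. Against maintained cultures the 8 h level stood 0.86 higher on the log2 scale (SE 0.25), not called at a limma adjusted p of 0.114.

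Igfbp2, whose protein binds both ligands, also had separate groups on withdrawal. The maintained arrays read 141.5, 179.4 and 176.2 and the withdrawal arrays 284.1, 299.3 and 317.5. The 2 h arrays read 255.5, 271.8 and 264.1, the 4 h arrays 288.4, 203.3 and 225.5, and the 8 h arrays 200.1, 222.1 and 237.0. The group means thus ran in the order maintained, 8 h, 4 h, 2 h and withdrawal; the 4 h group overlapped the groups next to it in that order, and the others stood apart from their neighbours. Withdrawal was 0.81 above maintained on the log2 scale (SE 0.14, n = 3 against 3), which is 1.75-fold, and 0.77 without withdrawal replicate 3. At 8 h the difference from withdrawal was -0.43 (SE 0.14, 95% interval -0.72 to -0.13), not called at a limma adjusted p of 0.133. Igfbp2 has 1 probe set under its symbol alone.

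Igfbp5, whose protein is often held in the extracellular matrix, is measured by 2 probe sets that did not tell the same account. The probe set chosen for the fit by its higher mean, 1422313_a_at, read 296.8 ± 138.5 (SD, n = 3) in maintained cultures and 266.5 ± 27.7 after withdrawal, with overlapping groups in every neighbouring pair of the order of means. Its 4 h arrays, 126.8 to 204.9, lay below its withdrawal arrays, 234.6 to 283.7, but the difference was not called (-0.57, SE 0.33, limma adjusted p = 0.3515). On 1452114_s_at the maintained arrays lay between 81.7 and 88.8 and the withdrawal arrays between 231.8 and 303.4. That probe set then read 219.4 ± 17.3 at 2 h, 211.2 ± 21.4 at 4 h and 143.7 ± 22.9 at 8 h (SD, n = 3 each). Its level was highest after withdrawal and at 8 h lay below every array of the other groups that had lost the factors, yet above the maintained arrays.

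In a fit over all 27022 probe sets that passed the filter, 1452114_s_at was 1.53 higher on withdrawal (SE 0.15), and 1.46 without withdrawal replicate 3. At 8 h it had fallen by 0.88 on the log2 scale against withdrawal (SE 0.15, limma adjusted p = 0.0114), 1 of 278 probe sets called in that comparison. This Igfbp5 call was lost without withdrawal replicate 2, 8 h replicate 1 or 8 h replicate 2 (limma adjusted p = 0.0514, 0.0678 and 0.0531) and kept without withdrawal replicate 3 (adjusted p = 0.0294). The probe set was singled out after its values had been seen, and whether it also reads other transcripts was not tested. Against maintained cultures, its 8 h level was 0.65 higher and not called (limma adjusted p = 0.0983).

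**Figure D2:**
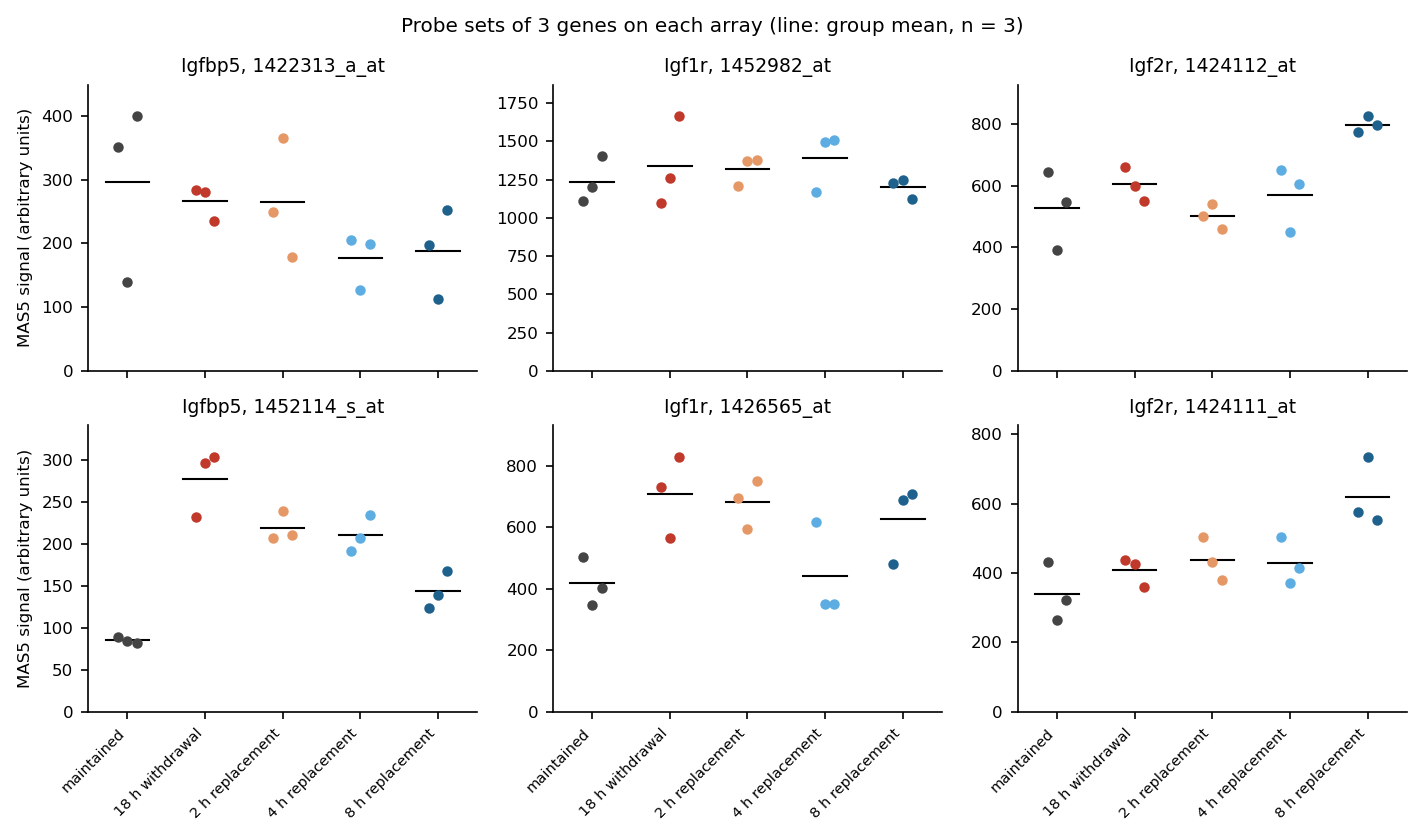
MAS5 signal (arbitrary units, vertical axis) of the 2 brightest probe sets each of Igfbp5, Igf1r and Igf2r on the 15 arrays in 5 groups (horizontal axis), 1 panel per probe set, with points for arrays and lines for group means (n = 3). The lower Igfbp5 panel is highest on withdrawal arrays, while in the upper one the maintained and withdrawal groups overlap. The Igf1r panels differ at maintained and 4 h, and both Igf2r panels are highest at 8 h.

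Igfbp7 encodes a secreted protein with weak affinity for IGFs that is abundant in vessel walls and stroma. Its signal was 143.1, 168.0 and 132.7 on the maintained arrays and 115.3, 115.2 and 141.2 on the withdrawal arrays. It was 156.7, 110.9 and 69.4 at 2 h, 244.0, 185.9 and 255.4 at 4 h, and 226.2, 262.7 and 218.0 at 8 h. Every 4 h and 8 h array exceeded every other array, while maintained, withdrawal and 2 h groups overlapped their neighbours. The other 2 probe sets of Igfbp7 were below the filter on dim signal.

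Between 2 h and 8 h of replacement Igfbp7 rose by 1.03 on the log2 scale (SE 0.21, 95% interval 0.59 to 1.46, limma adjusted p = 0.0152), which is 2.04-fold. This comparison uses none of the withdrawal or maintained arrays in its means. The call was lost without 2 h replicate 3, the lowest array (0.76, limma adjusted p = 0.0772), without 2 h replicate 2 (adjusted p = 0.0514) and without 8 h replicate 1 or 2 (adjusted p = 0.0525 and 0.0914). Against withdrawal, Igfbp7 rose by 0.80 at 4 h and by 0.85 at 8 h (SE 0.21 each, limma adjusted p = 0.0476 and 0.0369). At 8 h that Igfbp7 call was lost without withdrawal replicate 1 or 2, 2 h replicate 2, or 8 h replicate 1, 2 or 3 (limma adjusted p from 0.0507 to 0.143). At 4 h it was lost in 16 of 26 alternatives, 11 of them with 1 array left out: maintained replicates 1 and 3, withdrawal replicates 1 and 2, 2 h replicate 2, and every array of 4 h and 8 h. The largest limma adjusted p among these was 0.140. Without withdrawal replicate 3 both calls held, with differences of 0.89 and 0.93. Against maintained cultures the 8 h level of Igfbp7 was 0.62 higher (SE 0.21, 95% interval 0.19 to 1.05) and not called (limma adjusted p = 0.1535). The 4 h level was not tested against maintained cultures. The rise moved with the fibroblast marker genes: of 17 tested, limma called 7 higher and none lower at 4 h, 5 higher and none lower at 8 h against withdrawal, and 9 higher and none lower at 8 h against 2 h. Of all genes, limma called 2.64%, 2.39% and 1.85% in these comparisons. The median fibroblast difference was 0.76, 0.56 and 0.89 in them, and no marker of the list that was tested read 0 on any array. The 2 h array with the lowest Igfbp7 also had the lowest fibroblast sum, 4676. The part of fibroblasts in the Igfbp7 result was not tested.

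Igfbp4, whose protein restrains IGF action until proteases cleave it, has 6 probe sets, and the brightest, 1437405_a_at, represents it in the fit. Its signal was 872.7 ± 156.5 (SD, n = 3) in maintained cultures, 884.1 ± 222.4 at 2 h, 1490 ± 183.6 at 4 h and 1460 ± 322.3 at 8 h. The withdrawal arrays read 799.0 to 1934.1, the highest being replicate 3, so that this group overlapped every other. At 8 h the difference from 2 h was 0.72 and that from maintained cultures was also 0.72 (SE 0.27 each), and neither was called (limma adjusted p = 0.208 and 0.195). Against withdrawal the Igfbp4 differences were 0.42 at 4 h and 0.37 at 8 h, not called (limma adjusted p = 0.40 and 0.554). Without withdrawal replicate 1 they were 0.19 and 0.14, and without replicate 2 they were 0.25 and 0.21. Without withdrawal replicate 3, Igfbp4 was called at 4 h against withdrawal (0.82, limma adjusted p = 0.0442) and at 8 h against 2 h (0.72, adjusted p = 0.0418), but not at 8 h against withdrawal (0.77, adjusted p = 0.0586). That array also had the highest fibroblast sum of the withdrawal group, 10500 against 6916 and 7305. The part of the fibroblast signal in the Igfbp4 values was not tested. On 1421992_a_at the 8 h arrays, 309.7 to 512.6, lay above the withdrawal arrays, 105.1 to 248.2, and the maintained arrays, 69.1 to 248.4. On the dim 1421991_a_at they read 49.5 to 114.3, against 12.7 to 21.5 after withdrawal. In the fit over all probe sets limma called neither difference from withdrawal (adjusted p = 0.246 and 0.294). On 1423756_s_at, 1423757_x_at and 1437406_x_at the 8 h and withdrawal groups overlapped.

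**Figure D3:**
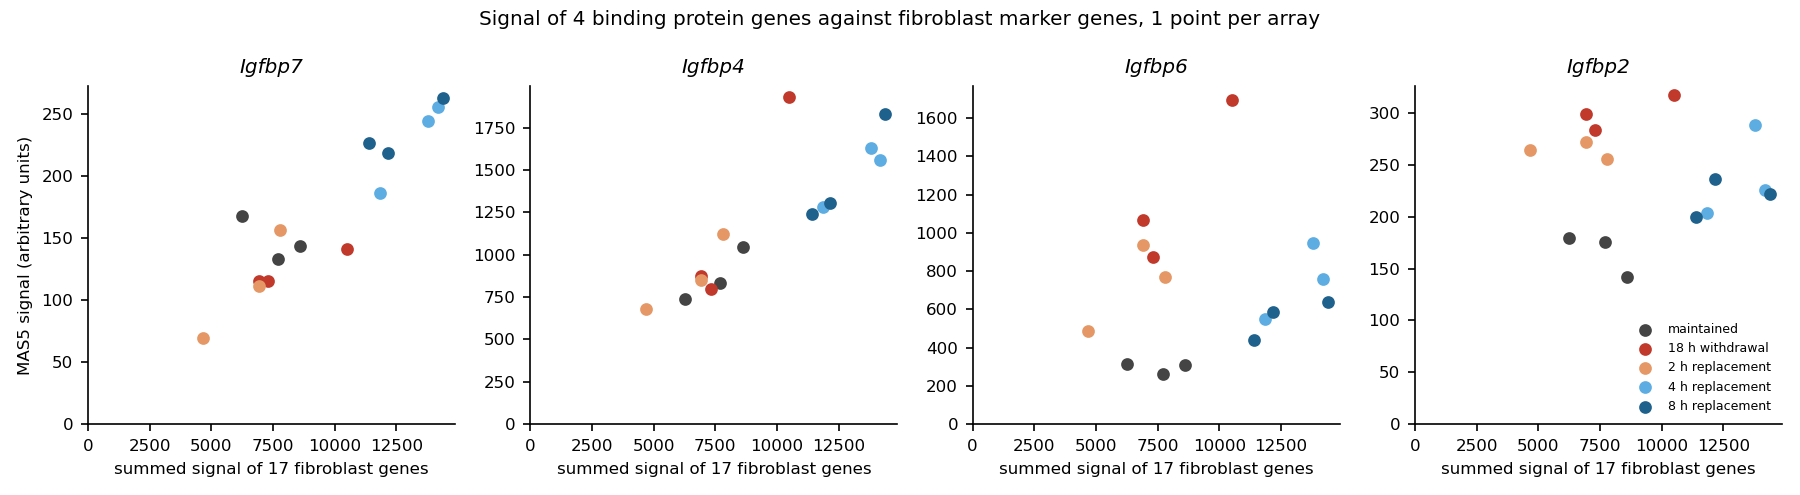
MAS5 signal (arbitrary units) of Igfbp7, Igfbp4, Igfbp6 and Igfbp2 (vertical axes) against the summed signal of 17 fibroblast genes (horizontal axis), 1 point per array, coloured by group. The 4 h and 8 h arrays lie at sums of 11400 or more and have the highest Igfbp7, while Igfbp6 and Igfbp2 are highest on withdrawal arrays, whose fibroblast sums are 6916, 7305 and 10500; the last of these arrays has the highest Igfbp6 and Igfbp2.

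On withdrawal, where Igfbp6 and Igfbp2 were high, 0 of 17 tested fibroblast genes passed the threshold, against 8.04% of all genes. Nothing is read from that count. The median fibroblast difference on withdrawal was 0.10, against 0.06 over all genes. On the withdrawal arrays with fibroblast sums of 6916 and 7305, Igfbp6 read 1067.5 and 875.9, and on the third, with a sum of 10500, it read 1696.0; the third also had the highest Igfbp2, 317.5. The fibroblast sums of the 3 maintained arrays lay between 6261 and 8612. At 8 h against withdrawal, 17 of 17 fibroblast genes had a positive difference (median 0.56, against 0.01 over all genes). Igfbp6 and Igfbp2 had negative differences there, -1.07 and -0.43. The part of fibroblasts in the Igfbp6 and Igfbp2 values was not tested.

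Igfbp3, whose protein carries most of the circulating IGF, was dim. Its 2 probe sets, 1458268_s_at and 1423062_at, had group means between 42.9 and 67.3 and between 30.2 and 61.1. The first represents Igfbp3 in the fit, its 5 groups overlapped, and its differences lay between -0.25 and 0.27 over the 6 comparisons, none called (limma adjusted p at least 0.667 in the 5 tested). Without withdrawal replicate 3, whose Igfbp3 signal was the lowest of its group, the differences from withdrawal were -0.22, -0.62 and -0.09 at 2, 4 and 8 h, and withdrawal differed from maintained by 0.25. The 3 maintained arrays of 1423062_at read 43.4 to 70.7 and the 3 withdrawal arrays 21.4 to 38.7, a difference of -0.72 (SE 0.25) at a dim signal.

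Among the ligands, Igf2, an imprinted gene whose product acts in fetal and early postnatal growth, was lower after withdrawal. The maintained arrays of 1448152_at read 1547.4, 1696.0 and 1638.2 and the withdrawal arrays 775.0, 776.8 and 632.7. The arrays of 2 h read 851.7, 856.1 and 995.4, those of 4 h 1024.7, 1057.1 and 902.9, and those of 8 h 991.5, 1033.1 and 1027.9. No array of the 4 groups that had lost the factors came within the maintained range, and the withdrawal group lay below all others. The 2 h, 4 h and 8 h groups overlapped their neighbours. Withdrawal differed from maintained by -1.15 on the log2 scale (SE 0.12, n = 3 against 3), which is 2.22-fold lower, and by -1.05 without withdrawal replicate 3.

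At 8 h Igf2 had risen by 0.48 on the log2 scale against withdrawal (SE 0.12, 95% interval 0.22 to 0.74, limma adjusted p = 0.0444), and it still lay 0.67 below maintained cultures: the difference was -0.67 (SE 0.12, 95% interval -0.92 to -0.41, limma adjusted p = 0.0185). The rise against withdrawal was lost in 17 of 26 alternatives, among them those without each array of withdrawal and of 8 h, without maintained replicates 1 and 3, 2 h replicates 1 and 2, and 4 h replicates 2 and 3 (limma adjusted p from 0.0506 to 0.147). Without withdrawal replicate 3 it was 0.38 (adjusted p = 0.0958). The difference from maintained cultures was lost without maintained replicate 2 or 3 and without any 8 h array (limma adjusted p from 0.0744 to 0.0990), and kept its sign in all 26 alternatives. At 2 h and 4 h the differences from withdrawal were 0.30 and 0.45 (limma adjusted p = 0.550 and 0.0585), not called. The other Igf2 probe set, 1415931_at, was dim, with group means from 33.3 to 55.5, and with the mean of both probe sets the 8 h difference from maintained cultures was -0.32 (limma adjusted p = 0.421).

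Igf1, the ligand made by many stromal cells, was dim on all 4 of its probe sets. The brightest, 1419519_at, had group means between 53.5 and 85.5 with SDs between 12.4 and 38.5, and its 5 groups overlapped. No difference of Igf1 was called, and the 5 tested ones lay between -0.49 and 0.20. Without withdrawal replicate 3 the Igf1 differences from withdrawal were -0.56, -0.82 and -0.35 at 2, 4 and 8 h, none called (limma adjusted p at least 0.187). With an SE of 0.33, the 95% interval at 8 h against withdrawal ran from -0.72 to 0.68, so a change of that size was not detectable on this probe set. A dimmer Igf1 probe set, 1434413_at, lay below the filter; it read 4.8 to 19.4 on the maintained, withdrawal and 2 h arrays and 21.8 to 41.3 on the 4 h and 8 h arrays, the same arrays that had the higher fibroblast sums.

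Igf1r, the signalling receptor, has 5 probe sets, which differed in profile. On the brightest, 1452982_at, the groups overlapped: the group means were 1237 in maintained cultures, 1342 after withdrawal, and 1320, 1389 and 1200 at 2, 4 and 8 h, with SDs from 69.0 to 290.1. Each group overlapped the next in the order of means, and the difference at 8 h against withdrawal was -0.14 with a 95% interval of -0.47 to 0.19 (limma adjusted p = 0.730). It was 0.02 without withdrawal replicate 3. On 2 of the 5 probe sets, 1426565_at and 1428967_at, every withdrawal array lay above every maintained one. The first read 418.4 ± 78.6 in maintained cultures, 708.3 ± 133.9 after withdrawal, 681.9 ± 79.2 at 2 h, 440.5 ± 154.3 at 4 h and 625.9 ± 126.1 at 8 h (SD, n = 3 each). The withdrawal arrays lay above the maintained ones (0.74 on the log2 scale, SE 0.22, and 0.62 without withdrawal replicate 3), and 1 of the 3 arrays of 4 h reached the withdrawal range. On 1428967_at the maintained arrays lay between 157.6 and 183.5 and the withdrawal arrays between 224.4 and 245.2 (0.41, SE 0.13), and the later groups averaged 211.0, 226.4 and 197.5 at 2, 4 and 8 h. On 1446303_at and 1452108_at the maintained and withdrawal groups overlapped. In the fit over all probe sets, limma called none of the 5 tested differences of any Igf1r probe set (adjusted p at least 0.136). For 1426565_at at 4 h against withdrawal the difference was -0.70. It was called without 4 h replicate 1 (-0.96, limma adjusted p = 0.0298) and with array weights (-0.77, adjusted p = 0.0251). This probe set was singled out after its values had been seen.

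Igf2r, the receptor that removes IGF2, was highest at 8 h of replacement. On 1424112_at the 8 h arrays lay between 772.7 and 824.2, above every other array, the highest of which read 661.3. The group means were 526.9 ± 126.9 in maintained cultures, 603.7 ± 55.8 after withdrawal, 500.3 ± 39.9 at 2 h, 569.6 ± 105.7 at 4 h and 797.2 ± 25.9 at 8 h (SD, n = 3 each). The other probe set, 1424111_at, had its highest group mean at 8 h too, 620.0 ± 99.0 against 339.6 to 438.4 in the other groups. The Igf2r difference of 0.66 between 8 h and 2 h (SE 0.17, 95% interval 0.31 to 1.01) had a limma adjusted p of 0.0538 and was not called; it was called in 11 of 26 alternatives. Those of 0.61 from maintained cultures and 0.40 from withdrawal had limma adjusted p of 0.0927 and 0.261.

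**Figure D4:**
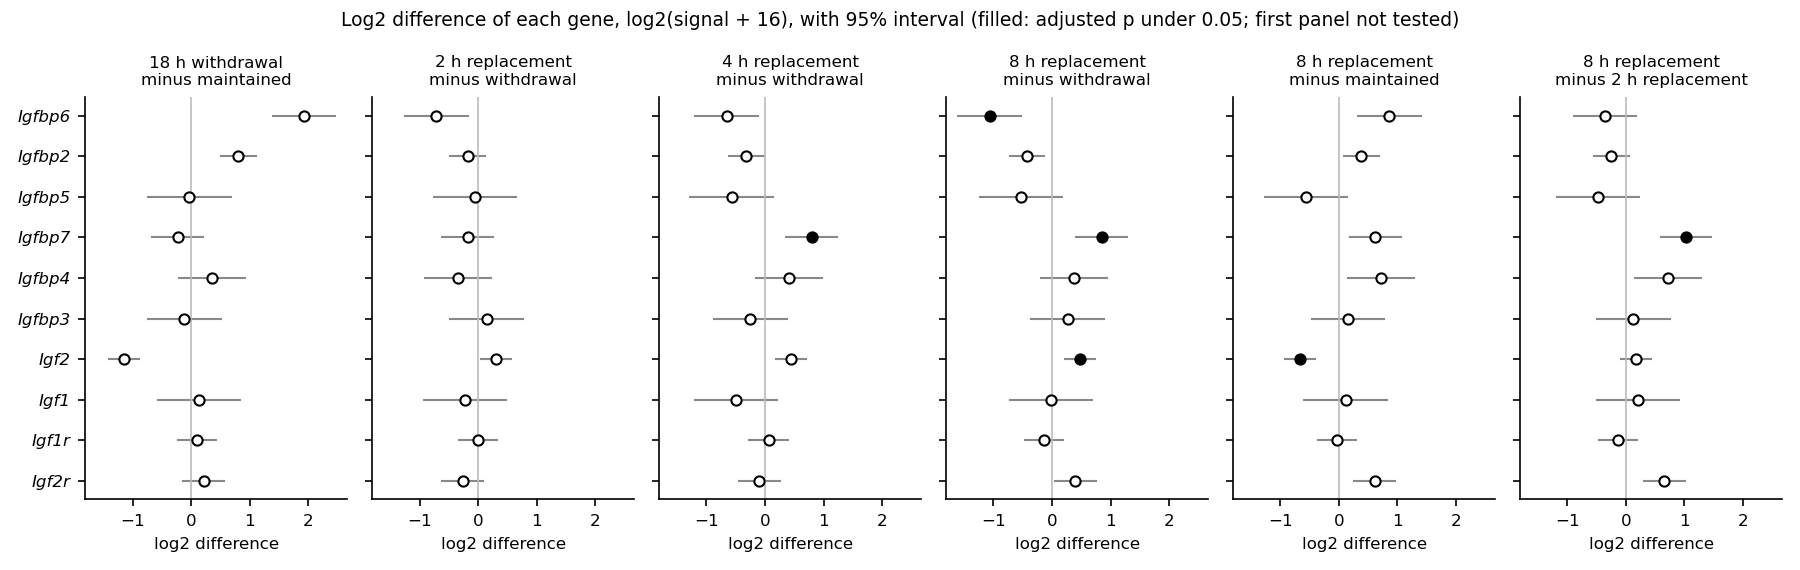
Difference on the scale of log2(signal + 16) (horizontal axis) of each of the 10 genes (vertical axis) in 6 comparisons, 1 panel each, with the 95% interval from limma as a line (n = 3 against 3). Filled points were called at an adjusted p below 0.05, and the first panel was not tested; Igfbp6 lies at 1.93 in the first panel and -1.07 in the fourth.

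The genes whose profiles over the 15 arrays lay nearest to those of the members were found by the root-mean-square difference of centred log2 values. For Igfbp6 they were Upp1 (0.23), Bnc2 (0.26) and Rragd (0.27), where the median gene lay at 0.73. For Igfbp2 they were Hbp1 (0.11), Prune1 (0.12) and Mau2 (0.12), with a median gene at 0.39. Rragd encodes a GTPase that signals amino acid supply to mTORC1, and Hbp1 a transcriptional repressor of cell cycle entry. For Igfbp7 they were Tm4sf1 (0.12), Hs6st2 (0.18) and Wls (0.18), the last a carrier of secreted Wnt proteins, with a median gene at 0.54. For Igf2 they were Zmiz1 (0.13), Pnp (0.15) and Dpysl2 (0.16), with a median gene at 0.48. The arrays are shared by all genes of such a list, and these distances are a description.

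Of the 52 other genes listed for the pathway, 45 were named by the platform annotation and 39 passed the filter. On withdrawal limma called 7 of 39 (17.9%, where 8.04% of all genes were called), 3 higher and 4 lower, with a median difference of 0.10 against 0.06 over all genes. This list was drawn up with earlier results of these data known, so its calls are not independent evidence. Foxo1, a transcription factor that AKT keeps out of the nucleus, was 0.75 higher (SE 0.13, limma adjusted p = 0.00179), and the adaptor Gab1 and the mTORC1 subunit Rptor were 0.62 and 0.52 higher (adjusted p = 0.00785 and 0.0148). Of the other Foxo1 probe sets, 1 read 770.8 ± 170.3 after withdrawal against 337.7 ± 20.8 in maintained cultures, and 1 read 636.5 ± 111.5 against 581.3 ± 114.1 (SD, n = 3 each). The 4 lower genes were Igfbpl1, a relative of the binding proteins (-1.36), the PI3K catalytic subunit Pik3cd (-0.62), the mRNA-binding protein gene Igf2bp1 (-0.62) and the mTORC1 activator Rheb (-0.60), with limma adjusted p between 0.00751 and 0.0269. The calls of Foxo1, Gab1 and Igfbpl1 were kept when any 1 array was left out. Maintained replicate 2 or 3 ended those of Igf2bp1, Pik3cd and Rheb, withdrawal replicate 2 those of Igf2bp1 and Pik3cd, and withdrawal replicate 3 those of Pik3cd and Rheb (limma adjusted p up to 0.111). Maintained replicate 3 or withdrawal replicate 1 ended that of Rptor (up to 0.0742).

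After 2 h of replacement limma called 0 of the 39 pathway genes, and 0.115% of all genes. At 4 h it called 2 of 39, and 2.64% of all genes: Plagl1, a zinc finger factor of the imprinted gene network (1.46, SE 0.30, limma adjusted p = 0.0201), and Gab1 (-0.54, adjusted p = 0.0384). At 8 h against withdrawal it called 4 of 39, and 2.39% of all genes: Plagl1 (1.24, limma adjusted p = 0.0364), the adaptor Shc1 (0.71, adjusted p = 0.0356), Foxo1 (-0.79, adjusted p = 0.00372) and Gab1 (-0.59, adjusted p = 0.0261). The comparisons at 4 h and 8 h share the withdrawal arrays, on which Foxo1 and Gab1 were high. The falls of these genes are thus not independent of their calls on withdrawal, nor of the choice of the list. Plagl1 read 369.3 on withdrawal replicate 3 and 1146.5 and 1021.0 on the other withdrawal arrays; without replicate 3 its differences were 0.96 at 4 h and 0.74 at 8 h (limma adjusted p = 0.0153 and 0.0523). Foxo1 was called without any 1 array, and the calls of Plagl1, Shc1 and Gab1 at 8 h were each lost without withdrawal replicate 3 and without 8 h replicates 2 and 3, among others (limma adjusted p up to 0.161). At 4 h, Plagl1 was lost without 4 h replicate 2 or 3 and Gab1 without any of 9 arrays, every 4 h array included (limma adjusted p up to 0.106). The Plagl1 probe set, 1426208_x_at, is of a class that can bind transcripts of other genes, and so are 1423757_x_at and 1437406_x_at of Igfbp4. Whether 1416983_s_at of Foxo1, 1458268_s_at of Igfbp3 and 1423756_s_at of Igfbp4 also read other transcripts was not tested. No pathway gene was called by limma between 8 h and maintained cultures, where the median difference was 0.12.

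Between 8 h and 2 h of replacement 2 of 39 pathway genes were called (1.85% of all genes were), both higher at 8 h. Irs1, the adaptor that couples the IGF1 and insulin receptors to PI3K, read 84.0 ± 9.81 at 2 h and 159.7 ± 17.7 at 8 h (SD, n = 3 each; 0.81, SE 0.16, limma adjusted p = 0.0128). Grb14, an adaptor that inhibits the insulin receptor, was dim, at 17.2 ± 6.96 and 54.6 ± 6.41 (1.11, SE 0.25, limma adjusted p = 0.0290). The Irs1 call was lost without 2 h replicate 3 or 8 h replicate 2 or 3, and the Grb14 call without those 3 arrays, 2 h replicate 2 or 8 h replicate 1 (limma adjusted p up to 0.0740 and 0.137). The insulin receptor gene Insr and Stc2, an inhibitor of the IGFBP4 protease, were called in none of the 6 comparisons (limma adjusted p at least 0.391 for Insr and 0.111 for Stc2). Irs2, Igfbp1, Igfals and the protease gene Pappa were below the filter on dim signal.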

How the data were processed

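RNA was measured on 15 single-colour Affymetrix arrays, 1 per sample, in 5 groups of 3. The deposited intensity values are MAS5 signals, per the submitters' processing notes; for the MAS5 version and settings, nothing is given in the sources used here. On every array the middle 96% of probe sets averaged 150, as found from the values. Genes were named from the platform annotation, which gives 34958 probe sets 1 symbol, 932 several and 9211 none. Probe sets with several were not named, and whether those with 1 symbol also read other transcripts was not tested.

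Signals were taken as log2(signal + 16). The 40% of probe sets with the lowest means (signal below about 30.5) were left out, and each gene was represented by its brightest probe set. limma 3.58.1 in R 4.3.3 (lmFit, eBayes with a variance trend) was fitted to all 15 arrays with 1 shared spread (10 residual degrees of freedom from the arrays), two-sided, with Benjamini-Hochberg adjustment over 13083 genes. Precision is limited by the number of arrays, with a median SE of 0.19. The scripts were tested on simulated data. Alternatives covered the added constant, the filter, normalization, probe set choice, model, array weights, replicate numbers and each array left out.

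The members and gene lists were chosen with earlier results of these data known. Named are every member, fixed pathway genes (Insr, Irs1, Irs2, Igfbp1, Igfals, Pappa and Stc2), the called pathway genes (at most 6 a direction), the 3 nearest profiles of each member past the threshold, and Bcl6b, Etv5 and Gfra1 as a check of the withdrawal label. The main fit did not pair the arrays by replicate number. The correlations of deviations from group means lay between -0.15 and 0.254, and not every pair was over 0.1. With 3 arrays a group, such values do not exclude pairing.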

Additional observations from a re-analysis of the deposited data

How the results depend on the processing

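Each comparison was repeated under 26 alternatives, 15 of them leaving out 1 array. Counts of members called at an adjusted p below 0.05 moved as follows. At 2 h against withdrawal the count was 0 throughout. At 4 h against withdrawal it was 1; it was 0 with a constant of 1, without the filter, with only the 2 groups compared, without the variance trend and with the replicate block, 2 with the dimmest 60% left out and 3 with array weights, and ran from 0 to 2 without 1 array. At 8 h against withdrawal it was 3. It was 1 without the filter and with only the 2 groups, and 0 without the variance trend. It was 2 with the arrays shifted to 1 median and with the mean of probe sets, and 5 with array weights. Without 1 array it ran from 0 to 3. At 8 h against maintained it was 1; it was 0 with the mean of probe sets, 2 with only the 2 groups, 5 with array weights, and ran from 0 to 2 without 1 array. At 8 h against 2 h it was 1; it was 2 with a constant of 64, the dimmest 60% left out, quantile normalization, only the 2 groups or the replicate block, 3 with array weights, and ran from 0 to 3 without 1 array. The replicate numbers are a shared number only, and under the replicate block the count at 8 h against withdrawal was 2, with Igf2 lost. The causes were not tested.

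Apart from Igfbp5 on withdrawal, each member difference that was past the threshold in any setting kept its direction in all. The Igfbp5 withdrawal difference of -0.03 turned to 0.75 with the mean of probe sets, and to 0.15, 0.24 and 0.05 without maintained replicate 1, maintained replicate 3 and withdrawal replicate 3; the lowest value without 1 array was -0.47. The Igf2 withdrawal difference was -0.87 with the mean of probe sets.

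Genes called on withdrawal numbered 1052 and ran from 313 (only the 2 groups) to 2297 (array weights). At 2 h they numbered 15 (5 to 67 under the same settings), at 4 h 346 (13 to 1609 under the same settings), at 8 h against withdrawal 313 (100 without 8 h replicate 2, 1192 with array weights), against maintained 63 (13 without maintained replicate 3, 1280 with array weights) and against 2 h 242 (61 without 8 h replicate 2, 904 with array weights). Shifting the arrays to 1 median moved the share of higher calls from 52.4% to 29.5% on withdrawal, from 65.6% to 89.5% at 4 h, from 57.1% to 21.7% at 8 h against maintained and from 79.8% to 54.0% at 8 h against 2 h. Quantile normalization moved it from 57.1% to 44.7% at 8 h against maintained and from 100% to 89.5% at 2 h. The shift moved the median difference of all genes from 0.06 to -0.08 at 8 h against maintained and from 0.03 to -0.09 at 8 h against 2 h. Signal near background limits Igfbp3, Igf1 and the dimmer probe set of Igf2.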
